A study of Schmidtea mediterranea with 36 samples.

Results

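The comparison described here set dividing stem cells against differentiated cells of the planarian Schmidtea mediterranea after 7 days of starvation. It used 8 of the 36 libraries of the series, the 4 X1 and the 4 Xins libraries of 7 days starved (7dS) planarians. Of the 26558 transcripts of the deposited tables, 18089 had a mean level of at least 1 over these 8 libraries and were tested, and 8469 fell under that level. The 36 libraries covered 3 sorted populations (X1, X2 and Xins), each with 4 replicates at 3 times without food (1dS, 7dS and 30dS, named by the days). All planarians were of the asexual strain, and the labels name no genetic change and no treatment other than starvation. Cells were dissociated and sorted by flow cytometry on DNA content with Hoechst and on cytoplasm with Calcein-AM, and dead cells were excluded with propidium iodide. X1 is the gate of stem cells in the S and G2/M phases, X2 holds G0/G1 stem cells together with their progeny, and Xins is the gate of irradiation-insensitive, differentiated cells. Xins is therefore a mixture of cell types, and in such bulk samples fewer cells of a type and less RNA per cell cannot be told apart. Whether same-numbered X1 and Xins samples came from the same planarians was not stated. The study describes the replicates of its 30dS levels as pools of planarians. The p-values reflect only how much these particular samples varied, in which animals and technical handling cannot be told apart.

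Planarian stem cells, the neoblasts, are the only dividing somatic cells of the animal and replace all other cell types during turnover and regeneration. Dividing cells build much new protein, and a new chain is folded by chaperones. HSP70 with its HSP40 partners and HSP90 act on many clients in the cytosol, and the ring-shaped chaperonin TRiC (CCT) folds actin, tubulin and other proteins in its central cavity. A separate set of chaperones serves the mitochondria, and another serves the endoplasmic reticulum (ER), where the unfolded protein response (UPR) adjusts folding capacity to the load of secreted and membrane proteins.

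Levels are normalised TPM values, a measure of abundance per transcript length, rescaled here so that each library summed to 1000000. Differences are X1 minus Xins on the log2(level + 1) scale, which understates the change of transcripts with low levels, and they are given with the standard error (SE) of the fit over 4 against 4 libraries. A transcript was called at a q-value (Benjamini-Hochberg over all 18089 transcripts, limma) under 0.01. Gene names were taken from the annotation tables of the study, with capitals where the symbol is the best match in another species, mostly human, and the number after a symbol is the component number of the transcript in the Dresden assembly. Reads of near-identical transcripts are divided between them by the quantification, so the levels of single members of a family such as HSPA8, TUBA1C, TUBB4B or DDX3X are uncertain.

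Among the 8 libraries, between 1733 and 4427 of the 26558 transcripts were listed at 0, and the 10 most abundant transcripts took between 5.95% and 12% of a library. The first principal component carried 84.4% of the variance and separated X1 from Xins. The next one carried 8.86% and separated replicates 1 and 3 from replicates 2 and 4 in both populations. Many chaperone transcripts were higher in replicates 2 and 4 than in replicates 1 and 3 of the same population, as the values below show, and the part of this split in the results was not tested beyond the fit with replicate number as a block. The median SD between replicates on the log2 scale was 0.389 in X1 and 0.518 in Xins. The sequencing depth cannot be recovered from these values and is unknown.

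The sort was checked on cdk1, the cyclin-dependent kinase that drives entry into mitosis. Its level was 41.4, 74.4, 47.3 and 66.4 in X1 replicates 1 to 4, and 0.067, 0.27, 0.268 and 0.193 in Xins. Every X1 library thus stood far above every Xins library, with a log2 difference of 5.57 ± 0.25 and a q-value of 4.1e-08. In X2, whose stem cells are in G0/G1, its mean level was 2.28. The other markers intended for this check, smedwi-1 and agat-1, were not matched to a transcript and have no value here.

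With every library set to the same total, far more transcripts were called higher in Xins than in X1. This balance depended on the scaling, as given below. Of the 18089 transcripts, 2442 (13.5%) were higher in X1 and 7223 (39.9%) were higher in Xins, and 8424 did not pass the threshold, so that 53.4% were called in either direction. The calls with a log2 difference of at least 2 numbered 999 in X1 and 4837 in Xins, and those of at least 6 numbered 20 and 298. There were 907 transcripts with a level under 0.5 in all 4 X1 libraries and a mean of at least 10 in Xins, and 58 with the reverse pattern. The transcripts higher in X1, though fewer, held most of the summed level of X1, and those higher in Xins held most of that of Xins. Both sets were chosen by their levels in these libraries, so a larger share in their own population is partly built in. The transcripts higher in X1 took between 69.5% and 73.3% of each X1 library and between 15.3% and 19.8% of each Xins library. The transcripts higher in Xins took 4.66% to 6.09% of X1 and 56.6% to 62.6% of Xins.

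Each library was set to the same total, and the median difference over all transcripts was then -0.69, against which each change is to be read. With median-of-ratios scaling this median was 0.05, and 4445 (25.1%) of 17681 transcripts were higher in X1 and 5677 (32.1%) in Xins. The share of calls that were higher in Xins was 74.7% on the main scale, 56.1% with median-of-ratios scaling and 46.9% after quantile normalization, where the median difference was 0.31 and 5925 (32.8%) were higher in X1 and 5228 (28.9%) in Xins. Median-of-ratios scaling kept 2442 of the 2442 calls higher in X1 and 5660 of the 7223 calls higher in Xins, and 0 calls passed the threshold in the opposite direction. With the replicate number as a block, 3590 (19.8%) were higher in X1 and 8793 (48.6%) in Xins.

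**Figure D1:**
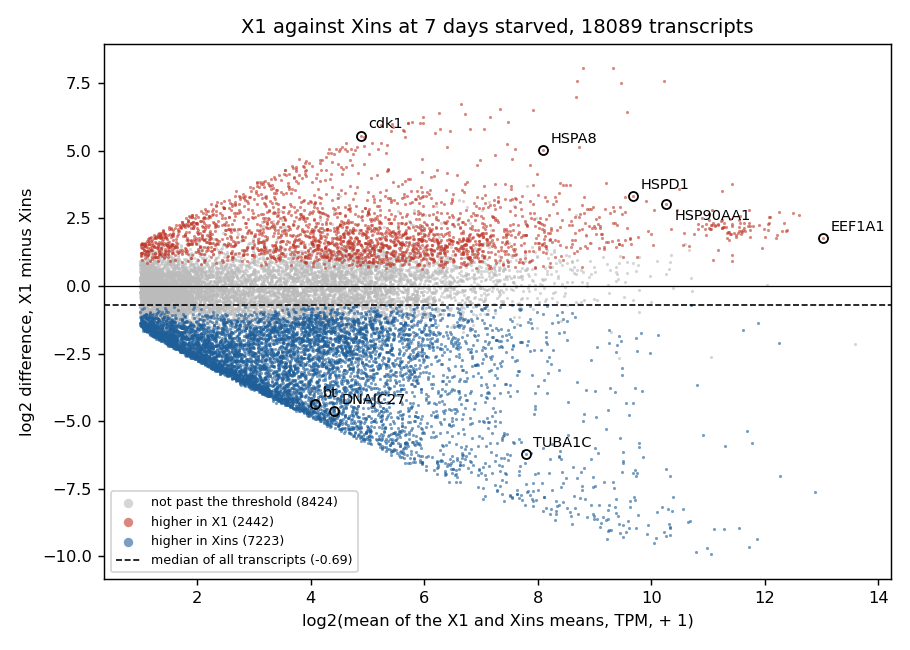
Log2 difference (X1 minus Xins, log2(level + 1) scale) against log2(mean of the X1 and Xins mean levels + 1) for each of the 18089 transcripts tested at 7dS, coloured by call, with the median of all transcripts (-0.69) as a dashed line and 8 transcripts circled and named by symbol. With every library set to the same total, calls higher in Xins (7223) outnumber calls higher in X1 (2442). TUBA1C 508 (-6.23) lies opposite to cdk1 (5.57).

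The largest differences belonged to transcripts with no annotation in the tables used. dresden_comp3517_c0_seq1 was at 809, 913, 926 and 880 in X1 and at 1.38, 2.22, 2.82 and 3.05 in Xins. dresden_comp2787_c0_seq1 was at 1562, 1162, 1571 and 816 in X1 and between 1.92 and 6.89 in Xins. Each had a log2 difference of 8.06 (SE 0.22 and 0.33, limma q-values 1.3e-08 and 2.5e-08), and no Xins library came near an X1 library. In the other direction, dresden_comp584_c0_seq1 was at 2.06, 0.991, 2.89 and 11.3 in X1 and at 4108, 4625, 2503 and 5738 in Xins, a log2 difference of -9.94 ± 0.50 with a q-value of 9.2e-08. dresden_comp941_c0_seq1 lay between 1.15 and 6.93 in X1 and between 2554 and 5586 in Xins, a log2 difference of -9.83 ± 0.40 with a q-value of 2.4e-08. For both transcripts X1 replicate 4 was the highest of the X1 libraries.

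X2 lay mostly between the other populations. Its mean level fell between those of X1 and Xins for 2048 (83.9%) of the transcripts higher in X1 and for 6468 (89.5%) of those higher in Xins. On the log2 scale it was closer to X1 than to Xins for 1416 of the former and 5574 of the latter. X1, X2 and Xins were normalised in separate tables by the authors, so these levels rest on the common total set here.

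The annotation tables of the study name 150 transcripts, of which 139 were tested. Of these, 47 were higher in X1, 17 were higher in Xins and 75 did not pass the threshold. With the replicate block the numbers were 81 and 34. The annotated transcripts were sorted by role into 12 lists of chaperones, translation factors, aminoacyl-tRNA synthetases and cytoskeletal transcripts. Counts in these lists are to be read against the shares of all transcripts. These were 13.5% higher in X1 and 39.9% in Xins on the main scale, and 19.8% and 48.6% with the replicate block. They were 25.1% and 32.1% with median-of-ratios scaling, and 32.8% and 28.9% after quantile normalization. The median difference of most chaperone and translation lists lay above the -0.69 of all transcripts, whereas those of the ER and cytoskeleton lists lay below it.

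**Figure D2:**
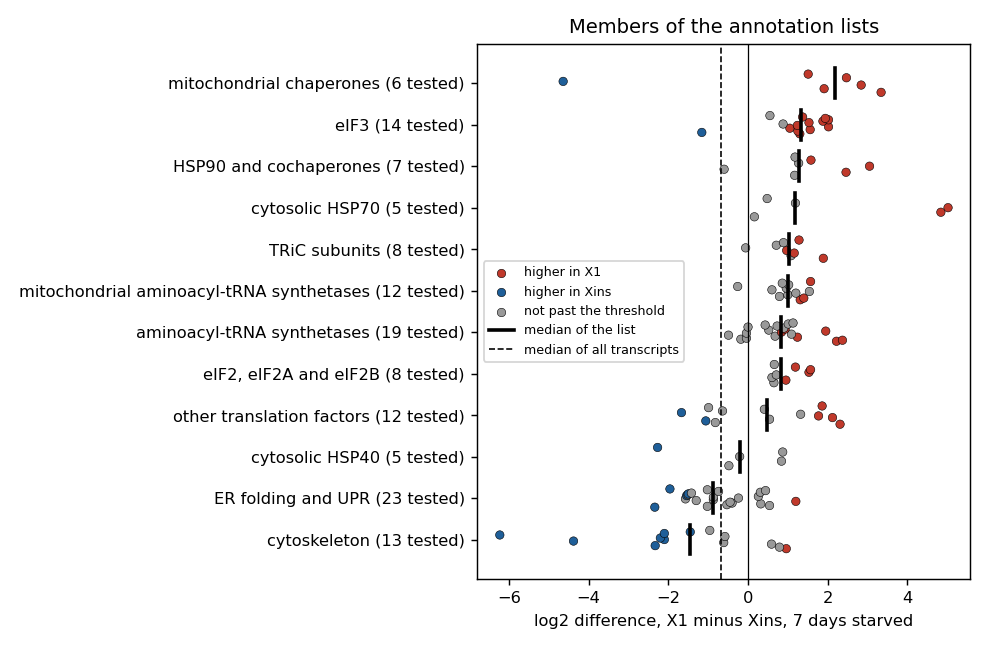
Log2 difference (X1 minus Xins, log2(level + 1) scale) of each tested member of the 12 annotated lists at 7dS, as points coloured by call, with the median of each list as a black bar and the median of all transcripts (-0.69) as a dashed line. Mitochondrial chaperones have the highest list median (2.19) and the cytoskeleton list the lowest (-1.45).

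Of the TRiC subunits, cct1A, cct2, cct6 and cct8A were higher in X1, and cct3A, cct4B, cct5 and cct7 did not pass the threshold. The sum of the 8 subunits lay between 1502 and 2795 in X1 and between 784 and 1483 in Xins. Of the 8, 4 were higher in X1 and 0 in Xins, against 13.5% and 39.9% of all transcripts, and the median difference was 1.02. The count was 7 with the replicate block, 7 with median-of-ratios scaling, 7 on the values as deposited, and 2 without X1 replicate 2 or without X1 replicate 4.

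cct1A had the largest difference among the subunits. Its level was 151, 338, 180 and 414 in X1 and 43.7, 104, 34.7 and 123 in Xins. The lowest X1 library exceeded the highest Xins library, and the log2 difference was 1.89 ± 0.47 (limma q-value 0.00491). This call was lost without X1 replicate 2 (1.74), X1 replicate 4 (1.64), Xins replicate 1 (1.69) or Xins replicate 3 (1.58). cct8A was at 262, 376, 231 and 433 in X1 and 119, 137, 101 and 172 in Xins, again with no overlap, a log2 difference of 1.28 ± 0.26 and a q-value of 0.00156. cct2 lay between 221 and 322 in X1 and between 92.5 and 153 in Xins, with a difference of 1.16 ± 0.23 and a q-value of 0.00126. cct6, between 211 and 366 in X1 and between 142 and 179 in Xins, differed by 0.97 ± 0.22 (q-value 0.00333). The cct6 call was lost without X1 replicate 1 (0.95), X1 replicate 2 (0.88), X1 replicate 4 (0.89) or Xins replicate 2 (0.92).

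The other subunits did not pass the threshold. cct3A (235, 393, 252 and 489 in X1 against 126, 173, 106 and 242 in Xins), cct7 (134, 208, 117 and 225 against 78.6, 108, 54.5 and 131) and cct4B (122, 213, 104 and 200 against 84.7, 109, 65 and 124) had log2 differences of 1.08 ± 0.33, 0.89 ± 0.32 and 0.71 ± 0.30. Their ranges overlapped between the populations, but within each replicate number X1 was the higher. Their q-values were 0.0138, 0.0332 and 0.0615, and with the replicate block 1.0e-05, 4.6e-05 and 3.0e-04 (limma). cct5 was at 236, 314, 186 and 346 in X1 and 255, 320, 180 and 378 in Xins. The ranges lay over one another, with a log2 difference of -0.06 ± 0.29 (q-value 0.881), and the value was 0.82 with median-of-ratios scaling (q-value 0.0703), which reverses its sign.

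The make-up of the TRiC transcript pool does not depend on the factor by which a whole library is scaled, although quantile normalization can change it. cct5 made up 14%, 12.5%, 12.4% and 12.4% of the summed level of the 8 subunits in X1 and 25.8%, 26.3%, 23% and 25.5% in Xins. The shares of the X1 libraries all lay below those of the Xins libraries. The share of cct1A was 8.99%, 13.5%, 12% and 14.8% in X1 and 4.4%, 8.56%, 4.42% and 8.28% in Xins, with every X1 share above every Xins share.

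Among the cytosolic HSP70 transcripts, HSPA8 1459 and HSPA8 1332 differed strongly between the populations and the other 3 tested did not pass. Of the 5 tested, 2 were higher in X1 and 0 in Xins, with a median of 1.19. HSPA8 1459, a match to the constitutive HSP70 of human cells, was at 338, 587, 427 and 772 in X1 and 7.08, 19, 12.2 and 26.8 in Xins. All X1 libraries were far above all Xins libraries, with a log2 difference of 5.02 ± 0.40 and a limma q-value of 1.9e-06. HSPA8 1332 behaved alike, at 177 to 395 in X1 and 5.69 to 14 in Xins, with a difference of 4.84 ± 0.34 (q-value 8.7e-07). HSPA8 320 was at 300, 629, 295 and 571 in X1 and 188, 438, 165 and 607 in Xins. Here the populations overlapped and the difference of 0.48 ± 0.45 did not pass (q-value 0.38). HSPA8 2221 (30.6 to 67.4 in X1, 9.46 to 37.7 in Xins) and HSPA4L (51.5 to 113 and 34.3 to 118), both given here after their values were seen, overlapped between the populations. Their differences were 1.19 ± 0.42 (q-value 0.028, 4.3e-05 with the replicate block) and 0.16 ± 0.42 (q-value 0.766). HSPA8 320 made up between 29.3% and 38.6% of the summed level of the 5 HSPA8 transcripts in X1 and between 85.5% and 88.5% in Xins, with sums of 855 to 1806 and 193 to 685.

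HSP40 proteins bring clients to HSP70 and stimulate its ATPase. Of the 5 members listed as cytosolic, 0 were higher in X1 and 1 in Xins. The list median was -0.21 on the main scale, -0.12 as deposited, 0.65 with median-of-ratios scaling and 0.77 after quantile normalization. The direction of this median thus depends on the scaling. With the replicate block 2 were higher in X1, and without X1 replicate 3 the count was 1. DNAJB1, the partner of HSP70 in the heat shock response of human cells, was at 59.3, 83.1, 46 and 68.8 in X1 and 30.9, 40.3, 24.3 and 43.3 in Xins. The groups did not overlap, and its log2 difference of 0.87 ± 0.26 had a q-value of 0.0137 (9.2e-05 with the replicate block). LOC100863952, a match to a dnaJ subfamily C member 16-like gene of the bee Apis florea, was at 6.49, 10.7, 6.78 and 13.6 in X1 and 46.1, 48.8, 36.3 and 60.4 in Xins. It was the member higher in Xins, by -2.27 ± 0.28 on the log2 scale with a q-value of 4.4e-05. The study also places it under the gene ontology term cell redox homeostasis. Where its protein acts in the planarian cell was not tested.

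The list of HSP90 and cochaperones was drawn mainly from the functional types given by the study. It is therefore not limited to proteins known to act with HSP90. Its members that passed were HSP90AA1 56, PPIH and FKBP1B, each higher in X1. FKBP4 (1.17 ± 0.35, limma q-value 0.013), ST13 (1.27 ± 0.40, q-value 0.018) and HSP90AA1 678 (1.18 ± 0.52, q-value 0.0711) did not pass. PPIC (-0.60 ± 0.53, q-value 0.358) did not pass either. Of 7 tested, 3 were higher in X1 and 0 in Xins, the median was 1.27, and their summed level was 2927 to 4687 in X1 and 620 to 1310 in Xins. The count rose to 6 with the replicate block, with median-of-ratios scaling, or without Xins replicate 4. HSP90AA1 56, a match to cytosolic HSP90, was at 1376, 2970, 1686 and 2562 in X1 and 141, 428, 133 and 463 in Xins. Its log2 difference was 3.05 ± 0.46 (limma q-value 1.9e-04), with no overlap. PPIH, which the study lists with the HSP90 group and whose human counterpart is a peptidyl-prolyl isomerase of the spliceosome, was at 233, 169, 163 and 171 in X1 and 39.5, 23.9, 34.6 and 32.9 in Xins. X1 replicate 1 was the highest library, and the difference was 2.46 ± 0.22 (q-value 4.8e-06).

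Mitochondrial chaperones had the highest median of the annotated lists. Of 6 tested, 5 were higher in X1 and 1 in Xins, with a median of 2.19, and these counts were alike with the block, with every scaling tried and without any 1 library. Their summed level was 2218 to 4111 in X1 and 453 to 764 in Xins. HSPD1 141, a match to the matrix chaperonin HSP60, was at 996, 1794, 1141 and 2038 in X1 and 105, 181, 85.1 and 237 in Xins. All X1 libraries lay above all Xins libraries, with a log2 difference of 3.34 ± 0.36 (q-value 1.8e-05). HSPA9 424, a match to the HSP70 of the matrix, was at 438, 1052, 621 and 1279 in X1 and 61.6, 185, 53.3 and 223 in Xins, a difference of 2.84 ± 0.52 (q-value 7.0e-04). TRAP1, the mitochondrial member of the HSP90 family, was at 224, 348, 202 and 351 in X1 and between 52.3 and 102 in Xins, a difference of 1.91 ± 0.28 (q-value 1.7e-04). The member higher in Xins was DNAJC27, at 0.336, 0.826, 0.252 and 1.19 in X1 and 30.4, 40.4, 35.4 and 54.1 in Xins, with a difference of -4.64 ± 0.28 (q-value 2.7e-07). The study lists it as mitochondrial, whereas human DNAJC27 is a Rab-like GTPase with a DnaJ domain.

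**Figure D3:**
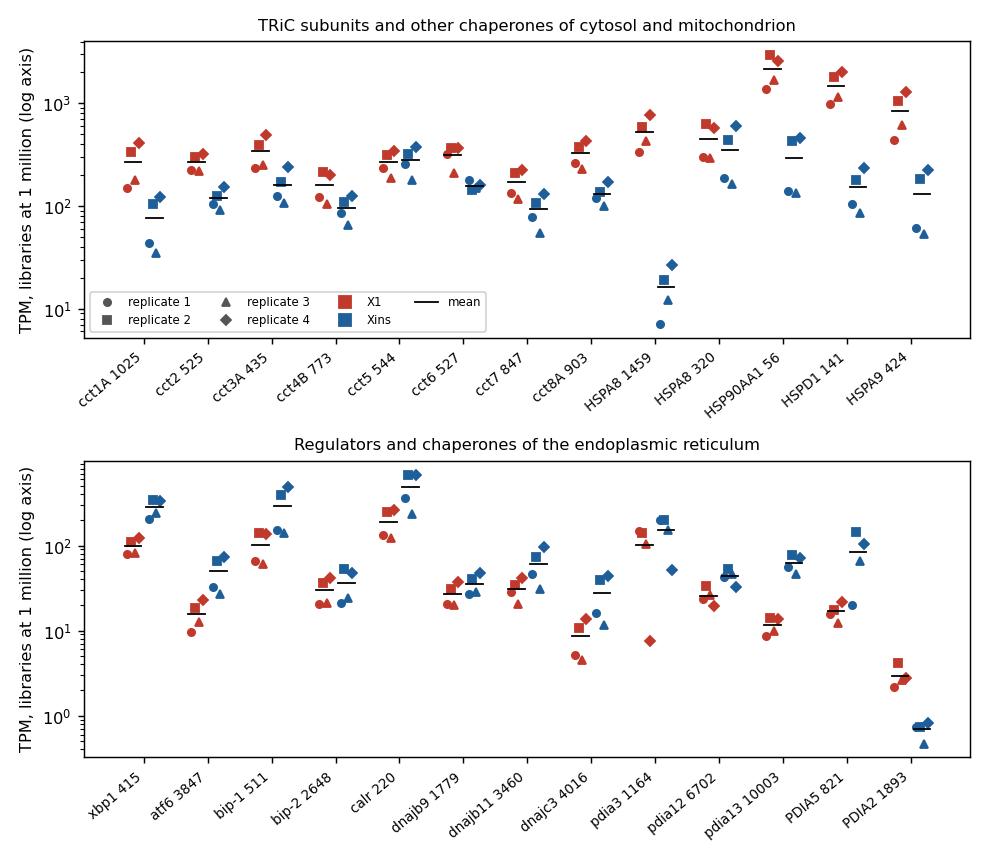
Level (normalised TPM, log axis) of named chaperone and UPR transcripts in the 4 X1 (red) and 4 Xins (blue) libraries of 7dS, with 1 symbol shape per replicate and the mean as a black bar. HSPD1 141 is separated by population (996 to 2038 against 85.1 to 237), the points of cct5 lie over one another, and xbp1 is higher in Xins (204 to 342 against 78.9 to 123).

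Transcripts of ER folding and the UPR had a median difference close to that of all transcripts, and few of them passed. The list held 25 members, of which 23 were tested. Among its members HSP90B1, HYOU1, SIL1, MLEC, FKBP2, PPIB, dnajb11 and dnajc3 carry a cytosol label in the table of the study and were placed here by the known role of the human protein. Of the 23, 1 was higher in X1 and 4 were higher in Xins, against 13.5% and 39.9% of all transcripts, and the median was -0.87. The median was -0.78 as deposited, -0.17 after quantile normalization and -0.02 with median-of-ratios scaling, where 6 were higher in X1 and 1 in Xins. With the replicate block 14 were higher in Xins. The 4 calls fell to 2 without X1 replicate 1, X1 replicate 3, Xins replicate 2 or Xins replicate 4.

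The transcription factors of the UPR were among those higher in Xins. xbp1, whose mRNA is spliced by the ER stress sensor IRE1 in other animals, was at 78.9, 111, 81.6 and 123 in X1 and 204, 342, 244 and 338 in Xins. The populations did not overlap, and the log2 difference was -1.50 ± 0.25 (limma q-value 3.7e-04). atf6, a membrane-bound factor released by cleavage under ER stress, was at 9.55, 18.2, 12.7 and 22.8 in X1 and 32.9, 65.8, 27.2 and 73.3 in Xins, a difference of -1.54 ± 0.38 (q-value 0.00477). Its call was lost without X1 replicate 1 (-1.34), X1 replicate 3 (-1.47), Xins replicate 2 (-1.37) or Xins replicate 4 (-1.32). With median-of-ratios scaling neither passed, with differences of -0.63 for xbp1 (q-value 0.114) and -0.70 for atf6 (q-value 0.0598).

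The ER chaperones bip-1 and calr did not pass on the main scale, but passed with the replicate block and on the values as deposited. Neither passed with median-of-ratios scaling, where the differences were -0.55 for bip-1 (limma q-value 0.254) and -0.43 for calr (q-value 0.362). After quantile normalization the q-values were 0.0352 and 0.0337, which did not pass either. bip-1, an ER HSP70, was at 65, 142, 61.4 and 137 in X1 and 154, 391, 139 and 487 in Xins. Within each replicate number Xins was higher, although the lowest Xins library was below the highest X1 library. The difference was -1.42 ± 0.47 (limma q-value 0.0212, 4.2e-06 with the block). bip-2 was at 20.8, 36.4, 21 and 41.2 in X1 and 21.1, 53.6, 24.2 and 47.1 in Xins, overlapping, with a difference of -0.24 ± 0.36 (q-value 0.6). Both bip-3 transcripts fell under the filter. The lectin chaperone calr was at 133, 246, 123 and 260 in X1 and 359, 680, 237 and 678 in Xins, a difference of -1.30 ± 0.40 with a q-value of 0.0147 (5.0e-06 with the block). calr also passed without Xins replicate 3 (-1.60).

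Among the ER J-domain proteins, dnajc3 was at 5.16, 10.7, 4.49 and 13.8 in X1 and 15.9, 38.9, 11.7 and 43.3 in Xins, and dnajb11 at 28.2, 34, 20.8 and 41.8 against 46.2, 73, 30.7 and 96. Their log2 differences were -1.51 ± 0.48 and -0.87 ± 0.36, with limma q-values of 0.0183 and 0.0569 without the block and 9.4e-06 and 3.0e-04 with it. Both overlapped between the populations and were higher in Xins within every replicate number. With median-of-ratios scaling neither passed, with differences of -0.69 for dnajc3 (q-value 0.121) and -0.02 for dnajb11 (q-value 0.97). Of these, dnajc3 passed when the replicate block was added to that scaling. dnajb9 was between 19.9 and 37.2 in X1 and between 26.8 and 47.2 in Xins, with a difference of -0.40 ± 0.28 that did not pass (q-value 0.253).

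Protein disulfide isomerases, which form and rearrange disulfide bonds in the ER, had calls in both directions, of which the 1 higher in X1 was for a low transcript. pdia13 was at 8.59, 14.2, 9.84 and 13.8 in X1 and 55.3, 77.8, 45.9 and 71.9 in Xins. It had the most negative difference of the list, -2.34 ± 0.26 (limma q-value 1.9e-05), and passed with median-of-ratios scaling too. PDIA5 821 was at 15.7, 17.6, 12.3 and 21.6 in X1 and at 20.2, 144, 65.3 and 103 in Xins, so that Xins replicate 1 lay within the range of X1. Its difference of -1.96 ± 0.52 (q-value 0.0069) lost the call without X1 replicate 1 (-1.93), X1 replicate 2 (-1.98), X1 replicate 3 (-1.82), Xins replicate 2 (-1.59), Xins replicate 3 (-1.97) or Xins replicate 4 (-1.75), and with median-of-ratios scaling (-1.10). PDIA5 1537 and PDIA5 3506 overlapped between the populations, with differences of 0.32 ± 0.45 (q-value 0.573) and 0.26 ± 0.42 (q-value 0.611). PDIA5 821 took 16.1% to 23.4% of the summed PDIA5 level in X1 and 42.5% to 70.2% in Xins. P4HB 250 was at 71.4, 165, 75.8 and 197 in X1 and 241, 528, 195 and 562 in Xins. Its difference was -1.57 ± 0.45 (q-value 0.0107, 7.1e-07 with the block). P4HB 250, PDIA5 1537 and PDIA5 3506 were added after their values were seen. pdia12 was between 19.6 and 33.5 in X1 and between 32.7 and 53.3 in Xins, a difference of -0.74 ± 0.24 (q-value 0.0191, 2.8e-04 with the block) that became 0.10 with median-of-ratios scaling. pdia3 was at 150, 141, 105 and 7.52 in X1 and 201, 201, 152 and 51.3 in Xins. Replicate 4 was the lowest library of both populations, and the difference of -1.02 ± 0.87 did not pass (q-value 0.336). The member higher in X1 was PDIA2 1893, a low transcript at 2.17, 4.12, 2.62 and 2.77 in X1 and 0.74, 0.726, 0.464 and 0.827 in Xins, with a difference of 1.20 ± 0.24 (q-value 0.00139).

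Among the translation lists, the largest share of members higher in X1 was that of eIF3, the complex that organises the small ribosomal subunit for initiation. Of 14 eIF3 transcripts tested, 11 were higher in X1 and 1 in Xins, with a median of 1.33 and a summed level of 2749 to 3139 in X1 against 1004 to 1137 in Xins. The count in X1 was 7 without X1 replicate 2, X1 replicate 4, Xins replicate 1 or Xins replicate 3, and 13 with median-of-ratios scaling. EIF3G 5500, a match to an RNA-binding subunit, was at 93.2, 131, 86.2 and 130 in X1 and 20.4, 31.3, 21 and 33 in Xins. The log2 difference was 2.02 ± 0.25 (limma q-value 4.5e-05), with no overlap. EIF3C 16848 was at 2, 3.65, 2.62 and 4.84 in X1, while in Xins it was listed at 0 in replicate 1 and between 0.0142 and 0.0459 in the others, a difference of 2.02 ± 0.26 (q-value 6.6e-05). EIF3A, the largest subunit of the human complex, was at 65.8, 133, 88.5 and 161 in X1 and 43.6, 132, 34 and 136 in Xins, and its difference of 0.55 ± 0.49 did not pass (q-value 0.359), whereas the value of 1.41 with median-of-ratios scaling did.

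eIF2 carries the initiator tRNA and eIF2B recharges it with GTP. Of 8 tested members of eIF2, eIF2A and eIF2B, 4 were higher in X1 and 0 in Xins, with a median of 0.83. With the replicate block, with median-of-ratios scaling and after quantile normalization the count was 8. EIF2B1 was at 41.8, 42.9, 36.2 and 33.9 in X1 and 14.1, 12.2, 12.2 and 12.2 in Xins, and EIF2B2 at 40.2, 54.9, 43.8 and 51.2 against 14.5, 14.7, 15.2 and 16.7. The X1 libraries of both subunits lay above all Xins libraries. Their log2 differences were 1.53 ± 0.19 and 1.57 ± 0.20, with limma q-values of 5.0e-05 and 4.8e-05.

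Among the 12 other translation factors, 4 were higher in X1 and 2 in Xins, with a median of 0.48. The counts were 6 and 5 with the replicate block and 6 and 0 with median-of-ratios scaling. The members higher in X1 included the subunits of the elongation factor that delivers aminoacyl-tRNA to the ribosome. EEF1A1 30 was among the most abundant transcripts described here, at 13425, 14718, 9264 and 14592 in X1 and 4198, 3416, 3768 and 3683 in Xins. Its difference was 1.77 ± 0.21 (limma q-value 3.6e-05). EEF1B2, the exchange factor of EEF1A, was at 3239, 2819, 3432 and 2454 in X1 and 626, 468, 951 and 451 in Xins, a difference of 2.31 ± 0.26 (q-value 2.6e-05). EEF1G was at 1938, 2197, 2602 and 1772 against 458, 444, 685 and 397, a difference of 2.12 ± 0.23 (q-value 1.7e-05). None of these 3 overlapped between the populations, and neither EEF1B2 nor EEF1G showed the higher values in replicates 2 and 4 seen for the chaperones.

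Aminoacyl-tRNA synthetases, which load tRNAs with amino acids, were higher in X1 wherever a member passed. Of 19 tested without a mitochondrial label, 6 were higher in X1 and 0 in Xins (median 0.84), and with the replicate block 13 were higher in X1 and 1 in Xins. KARS, the lysyl enzyme, was at 124, 204, 116 and 228 in X1 and 20.4, 49, 17.1 and 49.3 in Xins, a difference of 2.37 ± 0.40 (limma q-value 4.0e-04). TARS 10193, the threonyl enzyme, was at 11.1, 23.9, 15.4 and 25.5 against 2.32, 3.66, 1.88 and 5.2, a difference of 2.22 ± 0.34 (q-value 2.2e-04). For KARS and TARS 10193, all 4 X1 libraries exceeded all 4 Xins libraries. The other threonyl transcript, Tars 1476, given here after its values were seen, was more abundant and overlapped between the populations. It was at 64.8, 107, 53.6 and 103 in X1 and 82, 112, 64.6 and 107 in Xins, a difference of -0.18 ± 0.29 (q-value 0.616). TARS 10193 made up 14.6% to 22.3% of the summed level of both in X1 and 2.76% to 4.63% in Xins.

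Of 12 mitochondrial synthetases, 3 were higher in X1 and 0 in Xins (median 1.01), against 13.5% and 39.9% of all transcripts. With the replicate block 11 were higher in X1, against 19.8% of all transcripts, and with median-of-ratios scaling 11, against 25.1%. On the main scale the count was 5 without X1 replicate 1 and 6 without Xins replicate 4. Lars2, the leucyl enzyme, was at 20.6, 45, 24.5 and 45.2 in X1 and 7.75, 12.4, 7.23 and 14.6 in Xins, with no overlap, and its difference was 1.57 ± 0.34 (limma q-value 0.00197). PARS2, the prolyl enzyme, was at 13.4, 27.4, 14.4 and 33.4 against 3.94, 9.4, 3.35 and 12.5, a difference of 1.54 ± 0.44 that just missed the threshold (q-value 0.0104, 8.4e-06 with the block). It passed as deposited (1.62), with median-of-ratios scaling (2.34), after quantile normalization (2.60), without X1 replicate 1 (1.74) and without Xins replicate 4 (1.83).

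Cytoskeletal transcripts, which encode the main clients of TRiC among others, were the annotated list with the lowest median. Of 13 tested, 1 was higher in X1 and 7 were higher in Xins, against 13.5% and 39.9% of all transcripts, with a median of -1.45 (-0.60 with median-of-ratios scaling, where 2 and 4 passed). With the replicate block 3 and 9 passed. The count in X1 was 2 without X1 replicate 1 or without Xins replicate 3. The summed level was 6071 to 8373 in X1 and 11371 to 16200 in Xins. TUBA1C 508, a match to alpha-tubulin, was at 3.6, 5.77, 2.67 and 8.88 in X1 and 448, 426, 361 and 517 in Xins. It had the most negative difference of the annotated transcripts, -6.23 ± 0.31 (limma q-value 7.9e-08). ACTB 37, a match to cytoplasmic actin, was at 2753, 1466, 1564 and 1596 in X1 and 8723, 5347, 10341 and 7017 in Xins. Its difference of -2.10 ± 0.28 (q-value 8.1e-05) was -1.22 with median-of-ratios scaling (q-value 0.0512). ACTB 246, given here after its values were seen, was at 970, 707, 742 and 663 in X1 and 1962, 608, 1586 and 974 in Xins. These ranges overlapped, and its difference of -0.61 ± 0.35 did not pass (q-value 0.151). bt, a match to the titin-like muscle gene bent of the fly, was at 0.0825, 0.218, 0.285 and 0.513 in X1 and 11.5, 31.5, 16.1 and 67.5 in Xins, a difference of -4.38 ± 0.47 (q-value 1.7e-05). SH3GLB1, a match to the membrane-curving protein endophilin B1 and a member of none of the lists, was at 2.61, 6.31, 3.15 and 10 against 49.8, 190, 35.2 and 92.5, a difference of -3.68 ± 0.53 (q-value 1.4e-04).

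Transcripts that share a symbol did not always go the same way. Of 17 symbols with at least 2 tested transcripts, 3 had calls in opposite directions: TUBB4B, EIF3G and DDX3X. TUBB4B 152, a match to beta-tubulin, was at 3114, 2758, 2287 and 3329 in X1 and 1680, 1285, 1279 and 1643 in Xins, a log2 difference of 0.96 ± 0.20 (limma q-value 0.00191). TUBB4B 471 was at 182, 297, 162 and 329 in X1 and 1059, 1238, 671 and 1473 in Xins, a difference of -2.20 ± 0.32 (q-value 1.3e-04). Neither transcript overlapped between the populations, and TUBB4B 152 took 65.3% to 77.3% of the summed level of the TUBB4B transcripts in X1 and 29.6% to 40.2% in Xins. After quantile normalization the difference of TUBB4B 152 was 0.14 and did not pass (q-value 0.69).

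EIF3G 15937 was at 6.36, 10.8, 8.77 and 12.5 in X1 and 18.5, 27.9, 16.1 and 28.4 in Xins, opposite to EIF3G 5500. The difference of -1.16 ± 0.28 (limma q-value 0.00446) lost the call without X1 replicate 1 (-0.99), X1 replicate 3 (-1.13), Xins replicate 2 (-1.05) or Xins replicate 4 (-1.04), and with median-of-ratios scaling (-0.34, q-value 0.265). Its share of the summed level of both EIF3G transcripts, which a single factor per library leaves as it is, was 6.39% to 9.23% in X1 and 43.4% to 47.6% in Xins. DDX3X 799, a match to a DEAD-box RNA helicase that acts in initiation, was at 303, 523, 291 and 638 in X1 and 94.8, 139, 71.5 and 175 in Xins. DDX3X 3817 was at 12.5, 19.9, 17.6 and 25.2 in X1 and 54.7, 66.9, 49.4 and 72 in Xins. Their differences were 1.86 ± 0.35 (q-value 8.8e-04) and -1.67 ± 0.25 (q-value 1.9e-04), the latter -0.82 with median-of-ratios scaling (q-value 0.022). DDX3X 799 took 80.3% to 88% of the summed level of the DDX3X transcripts in X1 and 28.2% to 49.1% in Xins.

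A similar change of shares was seen for alpha-tubulin, although the second transcript did not pass. TUBA1C 1623 was at 38, 66.2, 46.5 and 68 in X1 and 28, 29.2, 27.5 and 37.2 in Xins. Every X1 library was above every Xins library, and the difference of 0.79 ± 0.24 had a limma q-value of 0.0154 (5.6e-04 with the replicate block). TUBA1C 508 accounted for 8.64%, 8.01%, 5.42% and 11.6% of the summed level of both in X1 and for 94.1%, 93.6%, 92.9% and 93.3% in Xins.

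**Figure D4:**
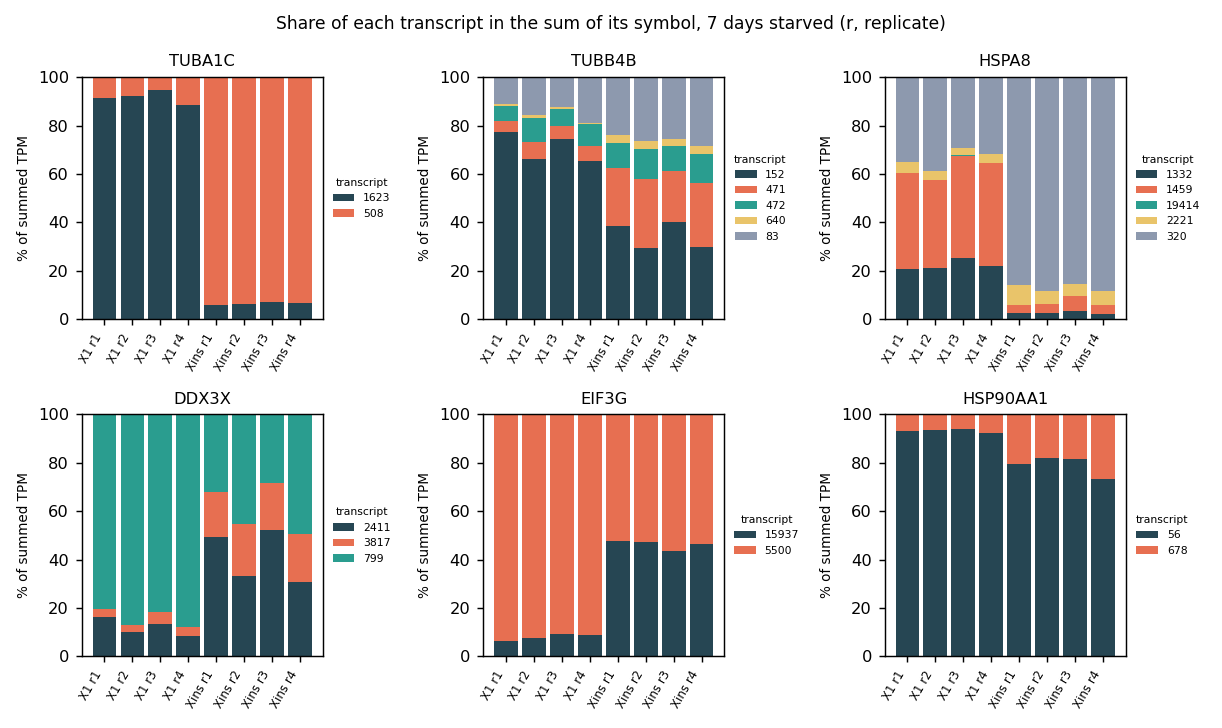
Stacked bars of the share (percent) that each transcript held of the summed level of its symbol in each of the 8 libraries of 7dS, for TUBA1C, TUBB4B, HSPA8, DDX3X, EIF3G and HSP90AA1, with colours for transcripts by component number. The shares of HSPA8 320 are 29.3% to 38.6% in X1 and 85.5% to 88.5% in Xins, and those of HSP90AA1 56 are 92.5% to 93.8% and 73.5% to 82.1%.

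Gene ontology (GO) lists gave a further view of the same contrast. Their counts are to be read against the same shares of all transcripts as those of the annotated lists. These lists were drawn by the study from transcripts that changed with starvation in X1, so they are not independent of the X1 libraries, and the copies of mRNA splicing (19 of 41), protein autophosphorylation (19 of 23) and signaling (19 of 141) were shortened. Some of these lists had calls higher in X1 alone. Of 19 in mRNA splicing 10 were higher in X1 and 0 in Xins (median 0.98, summed level 1671 to 2891 against 682 to 1289), and of 17 in transcription elongation 10 and 0 (median 1.07). Each of these counts was 6 without X1 replicate 2, and with the replicate block 15 of each were higher in X1, with 1 of transcription elongation higher in Xins. Translational initiation had 4 of 12 higher in X1 and 0 in Xins (median 0.80), and 10 and 1 with the block. Mitotic S phase had 9 of 18 higher in X1 and 0 in Xins (median 0.93), 16 with the block. Regulation of cellular amino acid metabolic process had 8 of 16 (15 with the block). All of its 17 members are among the 19 of mitotic S phase, so these lists are nearly the same set and not separate results.

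Glycolysis and signaling lay on the other side. Of 11 tested transcripts of the glycolytic process 1 was higher in X1 and 9 in Xins, with a median of -1.82 and summed levels of 525 to 980 in X1 against 3736 to 5615 in Xins, and the median stayed negative under each scaling (-0.95 to -2.02). With median-of-ratios scaling 5 were higher in Xins. Of 18 in signaling 0 were higher in X1 and 11 in Xins, with a median of -2.55 and summed levels of 61.8 to 137 against 434 to 786. There the counts were 4 and 11 with median-of-ratios scaling and 2 and 12 with the block. Protein autophosphorylation had 2 of 19 higher in X1 and 6 in Xins, against 13.5% and 39.9% of all transcripts. Its counts were 4 and 8 with the replicate block, 7 and 3 with median-of-ratios scaling and 9 and 3 after quantile normalization. The median of -0.42 turned to 0.33 and 0.78 with these scalings, and the 6 became 3 without Xins replicate 2 or Xins replicate 4. Response to ER stress, with 3 and 4 of 19, had a median of -0.68 that turned to 0.15 with median-of-ratios scaling (counts of 6 and 1), and with the replicate block the counts were 5 and 10. Nucleoside phosphate catabolic process had 3 and 4 of 12, against 13.5% and 39.9% of all transcripts. Its median of -0.75 turned to 0.41 after quantile normalization. Cell redox homeostasis, with 3 and 3 of 11, had a median of 0.09, which was 0.95 with median-of-ratios scaling (5 and 1) and 0.49 after quantile normalization (5 and 2). Of the 4 transcripts of notum cell fate specification 0 were higher in X1 and 1 in Xins (median 0.17), and 2 and 1 with the block or with median-of-ratios scaling.

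The same contrast was measured at the other times of starvation. The median of each annotated list kept its sign at all 3 times, except that of cytosolic HSP40, which was 0.40 at 1dS and -0.21 at 7dS and 30dS. At 1dS 2636 (16%) of 16458 transcripts were higher in X1 and 6401 (38.9%) in Xins, and at 30dS 2416 (14.5%) and 6840 (41.1%) of 16657. The number of TRiC subunits higher in X1 was 7 at 1dS, 4 at 7dS and 6 at 30dS, with medians of 1.42, 1.02 and 1.24. For eIF3 the numbers were 12, 11 and 11, and for mitochondrial chaperones 4, 5 and 5. Of the 5 cytosolic HSP70 transcripts 5 were higher in X1 at 1dS (median 3.22), 2 at 7dS (1.19) and 2 at 30dS (1.53). The ER list had 6 of its members higher in Xins at 1dS and 4 at 30dS. Such counts do not show that the contrast differed between times, which was tested on the difference itself.

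The contrast at 7dS differed from that at 1dS for 229 (1.33%) of 17204 transcripts at a q-value under 0.1 (limma), being higher at 7dS for 56 and lower for 173. These counts were 168 and 430 with the replicate block, and 1776 transcripts had an unadjusted p-value under 0.05. Leaving out 1 library of 7dS gave 34 to 55 and 76 to 139. They were lowest without X1 replicate 3 (34 and 76), and the count of lower contrasts also fell by over 1.5 times without X1 replicate 1 (89), X1 replicate 2 (86) or Xins replicate 1 (77), and that of higher contrasts without Xins replicate 1 (36). Against 30dS the contrast differed for 0 transcripts, with 207 at an unadjusted p-value under 0.05 and 4 with the block. Those 207 are fewer than a threshold of 0.05 would pass by chance among 17204 transcripts. The fit without the block leaves the deviation shared by replicate number in its error. The 0 calls therefore do not show that the contrast was the same at 7dS and 30dS.

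Among the 139 annotated transcripts, 1 passed against 1dS and 0 against 30dS. It was PDIA2 1893, which lay between 5.08 and 7.02 in X1 and between 0.24 and 0.735 in Xins at 1dS, and between 3.38 and 4.02 and between 0.367 and 0.664 at 30dS. Its log2 differences between the populations were 2.17, 1.20 and 1.68 at 1dS, 7dS and 30dS. The change from 1dS to 7dS was -0.97 ± 0.25 (limma q-value 0.089). It no longer passed without X1 replicate 1 (-0.87), X1 replicate 3 (-0.94), X1 replicate 4 (-0.96), Xins replicate 1 (-0.95), Xins replicate 2 (-0.96) or Xins replicate 4 (-0.93).

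Other named transcripts had contrasts that varied between the times without passing that test. cct5 had log2 differences of 1.02, -0.06 and 0.21 at the 3 times in that order, and its X1 libraries ranged from 412 to 1023 at 1dS and from 253 to 425 at 30dS. HSPA8 320 ranged from 864 to 1835 in X1 at 1dS and from 270 to 600 at 30dS. xbp1 had differences of -2.37, -1.50 and -1.79 likewise. The changes from 1dS to 7dS were -1.08 ± 0.42 for cct5 (limma q-value 0.327), -1.46 ± 0.69 for HSPA8 320 (q-value 0.467) and 0.88 ± 0.37 for xbp1 (q-value 0.397). In contrast, cdk1 was at 5.62, 5.57 and 5.62 and TUBA1C 508 at -5.83, -6.23 and -6.18 at the 3 times.

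**Figure D5:**
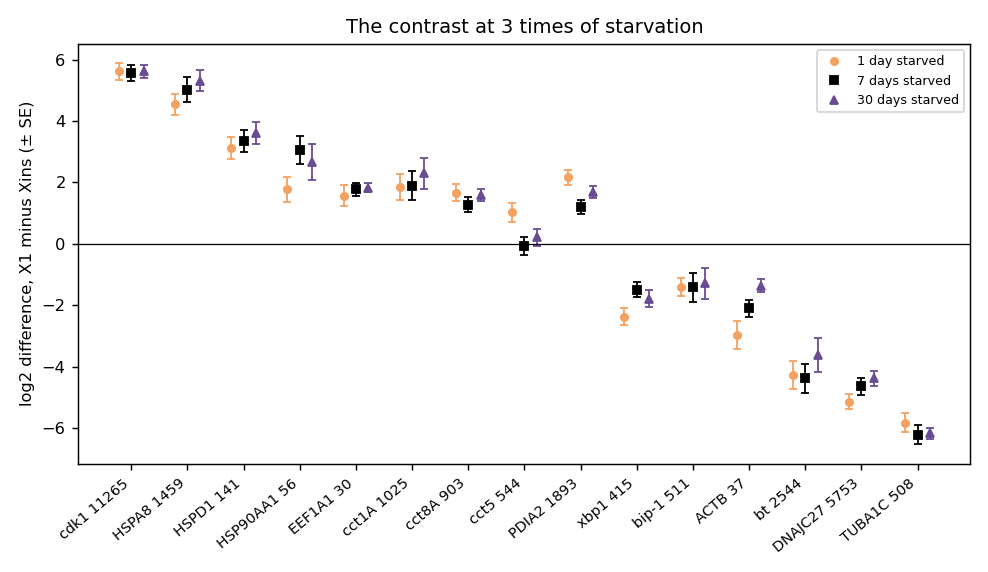
Log2 difference (X1 minus Xins, log2(level + 1) scale, bars show the SE) of 15 named transcripts at 1dS, 7dS and 30dS. cdk1 is at 5.57 to 5.62 and TUBA1C 508 at -5.83 to -6.23 at all times, while cct5 goes from 1.02 at 1dS to -0.06 at 7dS.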

How the data were processed

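RNA of sorted cells was sequenced as single-end reads, and the authors assessed ribosomal contamination with Bowtie2, kept reads that mapped to the Dresden v4 transcriptome and quantified them with kallisto 0.43.0. The deposited values are TPM normalised with Sleuth, a signal per transcript length; they are in a separate table for each population, and their columns did not sum to 1000000. They are not counts, so depth and counting error are unknown and no count test was run. Columns without a mapped sample numbered 0.

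Each library was rescaled to 1000000, tables were joined by transcript, and transcripts with a mean under 1 over the 8 libraries were left out. log2(value + 1) was fitted with limma 3.58.1 in R 4.3.3 (intensity trend, X1 minus Xins, two-sided, Benjamini-Hochberg, threshold 0.01). Differences between times used the 24 X1 and Xins libraries with a threshold of 0.1. The fitting script was tested on simulated data. Overlaps, shares and figures were made with python 3.11.15, pandas 2.3.3 and matplotlib 3.10.9.

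Same-numbered X1 and Xins libraries deviated together from their group means (correlations 0.564, 0.537, 0.566 and 0.683 for replicates 1 to 4, and each library correlated best with its own number), so the numbers were taken to pair the samples. This pairing comes from the data and not from the labels. The fit without the block stayed the main one. It leaves the deviation shared by replicate number in its error. A transcript that did not pass it may therefore still differ within replicate numbers. For cct3A the SE was 0.33 without the block and 0.11 with it.

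Gene names and lists come from the annotation tables of the study. Named transcripts were the genes of its chaperone and UPR table, the 5 annotated transcripts with the largest difference in each direction, the 2 largest of each list, 2 without annotation per direction, and the largest of each direction where 1 symbol went both ways, 53 in all. A further 8 were named after their values were seen: PDIA2 1893, TUBA1C 1623, HSPA8 320, ACTB 37, HSPA9 424, TRAP1, EEF1A1 30 and EIF3A. The members and lists were chosen with earlier results of these data known. Alternatives were the deposited values, median-of-ratios and quantile scaling, pseudocounts of 0.1 and 5, other filters, X2 included in the fit, the replicate block, no trend, array weights and each library left out. The block together with median-of-ratios scaling was added after seeing the data.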

Additional observations from a re-analysis of the deposited data

Results flagged for a closer look

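Among 122 groups of 4 libraries (61 named transcripts in X1 and in Xins), 3 had 1 library apart from the others, and chance alone sets a library apart in about 1 of 20 groups. EIF2B1 was at 14.1 in Xins replicate 1 and at 12.2 in the other Xins libraries. PPIH was at 233 in X1 replicate 1 and between 163 and 171 in the others. ACTB 37 was at 2753 in X1 replicate 1 and between 1466 and 1596 in the others. None of these values brought X1 and Xins into overlap. PDIA2 1893 had a contrast between X1 and Xins that was lower at 7dS than at 1dS, by -0.97 on the log2 scale (limma q-value 0.089, threshold 0.1). It was -1.17 with median-of-ratios scaling and -1.35 with a pseudocount of 0.1, neither of which passed.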

How the results depend on the processing

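The number of transcripts higher in X1 (2442) was 4445 with median-of-ratios scaling, 5925 after quantile normalization, 4054 with array weights and 5871 with the replicate block plus median-of-ratios scaling, and 1934 to 2493 without 1 library. The number higher in Xins stayed within 1.5 times throughout (6434 to 7267 without 1 library). Against 1dS, the 56 higher contrasts were 226 as deposited, 26 and 104 with pseudocounts of 0.1 and 5, 168 with the replicate block, and 34 to 55 without 1 library. The 173 lower contrasts were 71 with median-of-ratios scaling, 34 and 475 with those pseudocounts, 430 with the block, and 76 to 139 without 1 library. Against 30dS, the 0 higher contrasts were 14 as deposited, 2 with a pseudocount of 5, 4 with the block and 9 without Xins replicate 4 (0 to 9 without 1 library), and the 0 lower ones were 3 as deposited. The sign turned for dnajb9 (0.45 with median-of-ratios scaling with or without the block, 0.32 by quantiles, 0.07 with array weights), bip-2 (0.61, 0.45 and 0.50 likewise), pdia12 (0.10 with median-of-ratios scaling with or without the block) and cct5 (0.82, 0.14 and 0.29 likewise, 0.04 as deposited, 0.11 without X1 replicate 3, 0.02 without Xins replicate 2 and 0.10 without Xins replicate 4, in a range of -0.26 to 0.11 without 1 library). None of these passed on the main scale. The cause was not tested. Of 59 named transcripts tested, 42 passed, and 5 of these lost the call without at least 1 library. Beside the calls given in the report, the replicate block changed no other call of a named transcript. Median-of-ratios scaling brought cct3A, cct4B, cct7, PARS2, DNAJB1, TUBA1C 1623 and EIF3A past the threshold, and atf6, xbp1, PDIA5 821, DDX3X 3817, EIF3G 15937 and ACTB 37 lost the call. PDIA5 821 also lost it with no filter and with array weights (-0.83). Pseudocounts and the intensity trend changed no call of a named transcript between X1 and Xins at 7dS. Depth is unknown, so counting error could not be separated from replicate spread.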
